A study of Mus musculus with 12 samples.

Results

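The genes described here encode the β subunits of the sodium-potassium pump (*Atp1b1*, *Atp1b2* and *Atp1b3*), its small regulator FXYD1, the chloride cotransporters NKCC1 (*Slc12a2*), KCC1 (*Slc12a4*) and KCC4 (*Slc12a7*), and the kinases WNK1 and SPAK (*Wnk1* and *Stk39*). They were taken by symbol from a table of 24327 mouse genes, and all 9 symbols were found. RNA was measured in choroid plexus (ChP) dissected from the lateral ventricle of male mice aged 60 days at 9 a.m., in the light phase, and at 9 p.m., in the dark phase. All animals of the 4 groups carried FoxJ1:cre and bacTRAP (EGFP:L10a), so that both time points and both fractions share the same alleles. Translating ribosome affinity purification (TRAP) pulled down ribosomes carrying EGFP-tagged RPL10A with the RNA bound to them, and the unbound RNA of the same lysate is the supernatant. The 12 libraries formed 4 groups of 3, and each library came from ChP pooled from 3 animals. FoxJ1 drives Cre in ciliated epithelia, including ChP epithelium and ependyma, whereas the supernatant holds RNA of every cell type in the dissected tissue together with epithelial RNA not bound to the tag.

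The sodium-potassium pump moves sodium out of the cell and potassium in, and in ChP epithelium it sits, unusually for an epithelium, in the apical membrane facing the cerebrospinal fluid (CSF). Its catalytic α subunit needs a β subunit to fold and reach the membrane, and FXYD proteins tune its kinetics. NKCC1, also apical in ChP, carries sodium, potassium and chloride together, whereas KCC cotransporters move potassium and chloride out of the cell. WNK kinases activate SPAK, which phosphorylates both kinds of cotransporter, switching NKCC1 on and the KCCs off.

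Expression was given as FPKM (the fragments of a transcript divided by its length and by the number of mapped fragments), which is a level per length and can be set side by side between genes. The 15 markers of ChP epithelium were all above a mean of 1 FPKM, led by *Ttr*, and their summed level was 41081 to 74601 FPKM per library. Rows named as microRNA genes took 31.9% to 75.4% of the FPKM of a library, and of 2940 genes with a median above 20 FPKM between 0 and 107 were listed at 0 in a library. Read depth is unknown from FPKM. The 9 pump and cotransporter genes made up 0.437% to 0.611% of the FPKM outside the microRNA rows, with a median of 0.534%. None of the 9 was listed at 0 in any library, and all passed the filter of a mean above 1 FPKM in every comparison.

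The levels of the 9 genes spanned a wide range, and part of their order differed between the fractions. The highest mean over the 12 libraries was 472 FPKM for *Fxyd1*, followed by 433 FPKM for *Atp1b1*, 336 FPKM for *Stk39* and 201 FPKM for *Slc12a2*. These means placed the genes at ranks 66, 76, 108 and 204 of the 11156 genes above 1 FPKM. The means of *Atp1b2* and *Atp1b3* were 95.3 and 95.2 FPKM, those of *Wnk1* and *Slc12a4* were 79.4 and 63.5 FPKM, and *Slc12a7* was lowest at 18.9 FPKM. *Slc12a2* exceeded *Atp1b2*, and *Slc12a4* exceeded *Slc12a7*, in 12 of 12 libraries. *Fxyd1* exceeded its neighbour *Atp1b1* in only 7 of 12 libraries, so that these 2 genes did not differ beyond their spread. *Atp1b1* exceeded *Stk39*, and *Stk39* exceeded *Slc12a2*, in 11 of 12 libraries. The 4 genes in the middle of the order changed places with the fraction. *Atp1b2* exceeded *Atp1b3* in 0 of 6 TRAP and 6 of 6 supernatant libraries, *Atp1b3* exceeded *Wnk1* in 6 of 6 TRAP and 0 of 6 supernatant libraries, and *Wnk1* exceeded *Slc12a4* in 1 of 6 TRAP and 6 of 6 supernatant libraries. The genes also differed in how much they varied: *Atp1b1*, the least variable, stayed between 361 and 554 FPKM in the 12 libraries, whereas *Fxyd1* ran from 39.8 to 1133 FPKM. The coefficient of variation over the 12 libraries was 16.7% for *Slc12a2* and 20.4% for *Slc12a4*, but 57.9% for *Fxyd1* and 52.4% for *Slc12a7*. For comparison, the median over the 3230 genes with a mean above 20 FPKM, a set without *Slc12a7*, was 46.1%. Over all 11156 genes above 1 FPKM it was 84.8%. Neither set was matched to the level of a member.

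**Figure D1:**
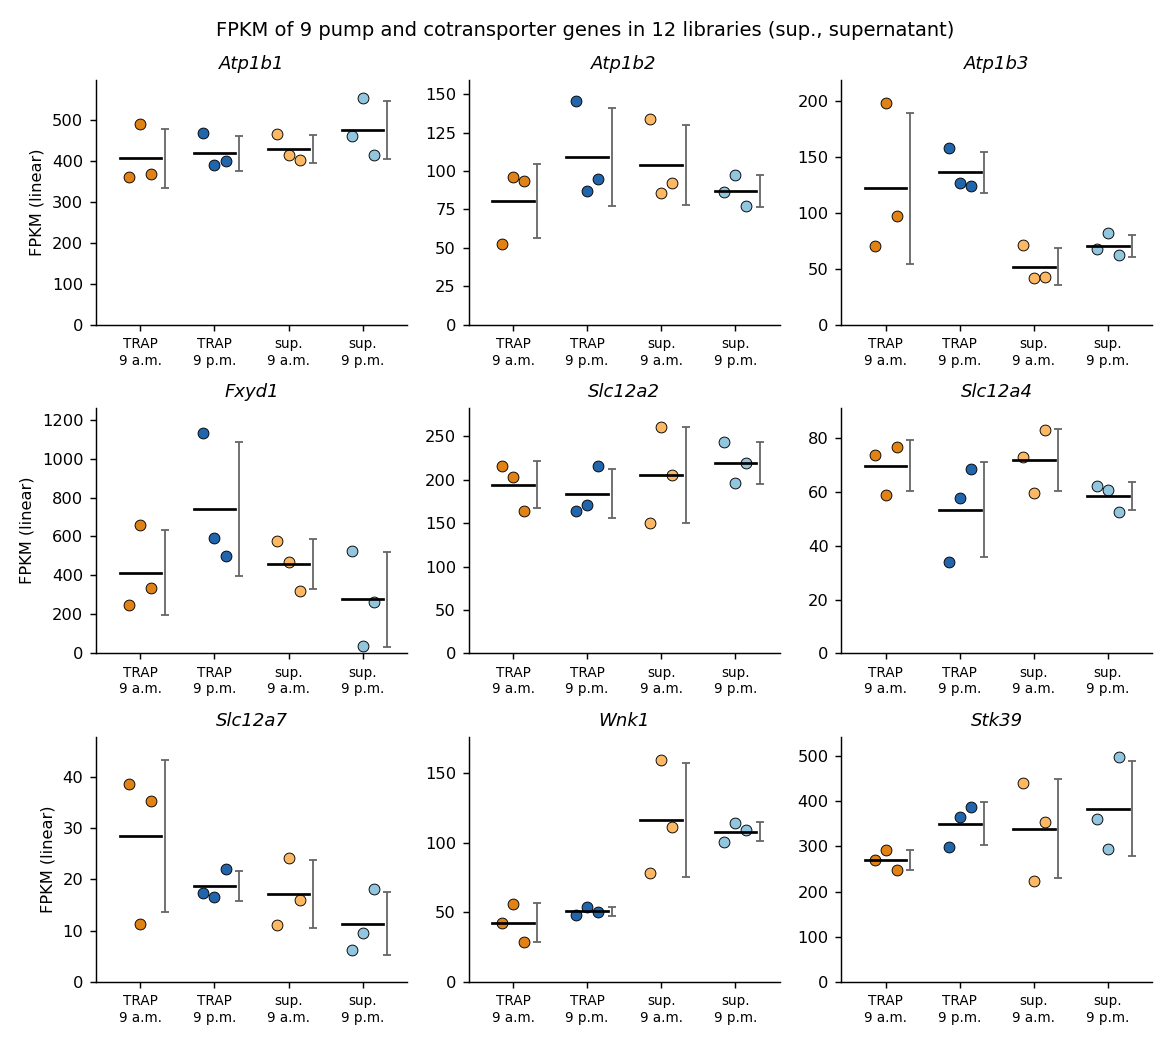
Level in FPKM (linear axis from 0) of each of the 9 genes in the 12 libraries; points are libraries, horizontal lines are group means and the bars beside them are 1 SD (n = 3). *Wnk1* lies between 28.8 and 56.3 FPKM in the 6 TRAP libraries and between 78.0 and 159.9 FPKM in the 6 supernatant libraries.

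Comparing TRAP with supernatant asked which of these transcripts were relatively more or less abundant on tagged epithelial ribosomes than in the unbound RNA. Of the 9 genes, *Wnk1* was lower and *Atp1b3* was higher in TRAP by more than the spread between libraries at an unadjusted level, and neither passed after adjustment over all genes. The test was limma on log2(FPKM + 1), and a call needed both a Benjamini-Hochberg adjusted p under 0.05 and a log2 fold change beyond 0.3 in either direction. With both times in 1 fit, 0 of the 9 genes were called, against a background of 0.108% of the 11156 genes tested. At an unadjusted p under 0.05, 2 of the 9 passed, against 7.72% of all genes. The median log2 fold change of the 9 genes was -0.11, beside -0.13 for all genes tested, and 3 of the 9 were above 0, beside 43.2% of all genes. Because the supernatant is a bulk sample, unbound epithelial RNA and RNA of untagged cells cannot be told apart in it. Between pools, fewer cells of a type and less RNA per cell cannot be told apart either.

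Among the β subunits, *Atp1b1* encodes the β1 subunit, the most widespread partner of the α subunits. It lies at chr1:164437109-164458355 on the minus strand (mm10 coordinates, from GENCODE M21 on GRCm38), with a spliced length of 2580 nt, of which 912 nt are coding. *Nme7* overlaps it on the opposite strand, and with the strand setting of the counting not stated their reads may not be fully separable, although *Nme7* did not exceed 53.4 FPKM. *Atp1b1* stood at 361, 490.2 and 369 FPKM in TRAP at 9 a.m., and at 468, 389 and 400.1 FPKM in TRAP at 9 p.m. In the supernatant it stood at 467, 416 and 403 FPKM at 9 a.m. and 461, 554 and 414 FPKM at 9 p.m. All 4 groups overlapped, and the log2 fold change between TRAP and supernatant was -0.13 with a 95% interval of -0.48 to 0.21.

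*Atp1b2* encodes the β2 subunit, also known as the adhesion molecule on glia, and lies at chr11:69599736-69605942 on the minus strand. It ranged from 52.9 to 146 FPKM over the 12 libraries, with group means of 80.7 ± 24.2 (SD, n = 3) in TRAP at 9 a.m., 109 ± 31.9 in TRAP at 9 p.m., 104 ± 26.2 in supernatant at 9 a.m. and 87.0 ± 10.3 FPKM in supernatant at 9 p.m. Its fractions overlapped at both times, and its log2 fold change between TRAP and supernatant was -0.05 with a 95% interval of -0.59 to 0.50.

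*Atp1b3* encodes the β3 subunit and lies at chr9:96332655-96364442 on the minus strand, with a spliced length of 1994 nt and a coding length of 834 nt. In TRAP it stood at 70.5, 199 and 97.2 FPKM at 9 a.m. and 158, 127 and 124 FPKM at 9 p.m. In the supernatant it stood at 71.0, 41.6 and 42.9 FPKM at 9 a.m. and 67.6, 81.8 and 62.1 FPKM at 9 p.m. At 9 a.m. the lowest TRAP library lay just under the highest supernatant library, so the fractions overlapped, whereas at 9 p.m. each TRAP library was above every supernatant library. At 9 p.m., 4.88% of the 10924 genes tested were separated in this direction, and *Atp1b3* was the only member of the 9 that was.

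The group means of *Atp1b3* were 122 ± 67.6 (SD, n = 3) and 136 ± 18.8 FPKM in TRAP, and 51.8 ± 16.6 and 70.5 ± 10.2 FPKM in supernatant, at 9 a.m. and at 9 p.m. The log2 fold change over both times was 1.04 (SE 0.27, 95% interval 0.46 to 1.61), with an unadjusted p of 0.0016 and an adjusted p of 0.261 by limma. It ranked 69th by p among the 11156 genes. Within pools, TRAP exceeded the supernatant of the same pool in 5 of 6 pools, with a median ratio of 2.13 and a lowest ratio of 0.994. The pools themselves differed, as the median log2 difference between TRAP and supernatant over all 11156 genes ran from -0.57 to 0.38. Replicate 2 of TRAP at 9 a.m. was the highest library, and without it the log2 fold change was 0.84 over both times and 0.71 at 9 a.m., where it had been 1.13.

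Within a library the order of the 2 minor β subunits differed by fraction. *Atp1b3* exceeded *Atp1b2* in 6 of 6 TRAP libraries, with ratios of 1.04 to 2.07, and was below it in 6 of 6 supernatant libraries, with ratios of 0.465 to 0.838. Such a ratio within a library does not depend on how the libraries were scaled to each other. It shows unequal abundance of the 2 transcripts and does not show which of them differed, and it was not tested. As a share of the summed FPKM of the 3 β subunits, *Atp1b3* took 19.1% and 20.5% in TRAP and 8.73% and 11.1% in supernatant, at 9 a.m. and at 9 p.m. *Atp1b1* took the largest share in all 4 groups, with means from 63.3% to 75.1%.

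**Figure D2:**
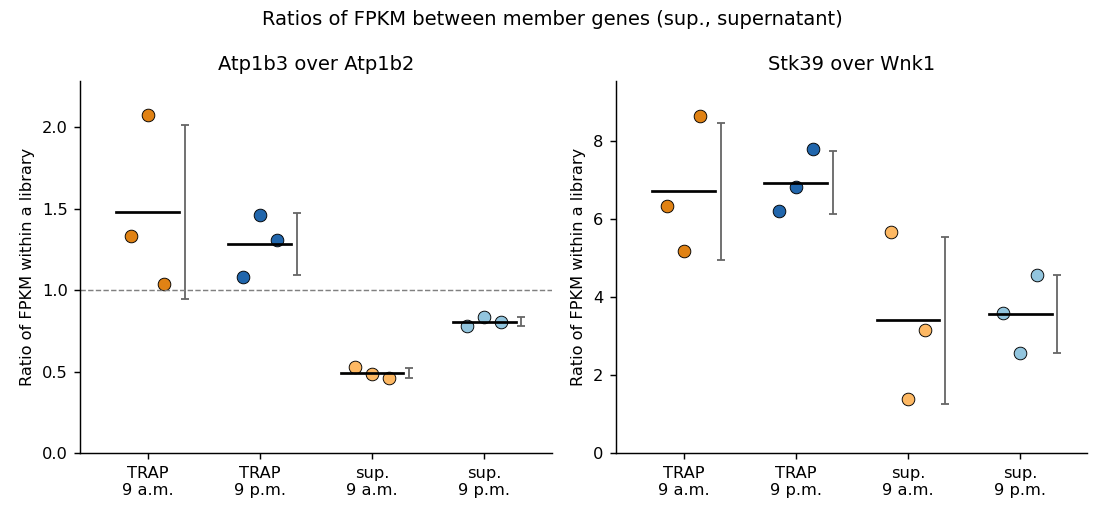
Ratio of FPKM within a library (linear axes from 0) for *Atp1b3* over *Atp1b2* and for *Stk39* over *Wnk1*; points are libraries, lines are group means and bars are 1 SD (n = 3). All 6 TRAP libraries lie above the dashed line of equal levels for *Atp1b3* over *Atp1b2*, and all 6 supernatant libraries lie below it.

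Since the study compared clock times, the promoters were searched for the E-box CACGTG, the motif bound by the clock factors BMAL1 and CLOCK, which reads the same on both strands. Windows of 250 bases before to 50 bases after RefSeq starts (GRCm38.p6) were searched for 7 of the 9 genes, in 9 windows. *Atp1b2* had no window, and *Slc12a2* was left out of the search. Among these 7 genes the motif was found in windows of *Atp1b3* and *Slc12a7* only. That is 2 of 7 genes, beside 8.09% of all genes with a match in any window. By window it is 3 of 9, beside 7.15% of all 32851 windows, and neither difference was tested. The window of *Atp1b3* with the match is chr9:96363666-96363965, minus strand, with the first base of the motif at -221 from the start. It lies inside the annotated span of the gene, and the window at the annotated 5′ end of *Atp1b3* had no match. The window of *Slc12a7* is chr13:73763410-73763709, plus strand, with the first base at -1, and an overlapping window held the same match. These *Slc12a7* windows also lie inside the annotated span of the gene, and none searched covered its annotated 5′ end. The *Atp1b3* and *Slc12a7* windows given by coordinates are shown in full because they carry the only matches in the windows searched, 5′ to 3′ with the motif in capitals. A match is a description of the letters and not a binding site.
Atp1b3: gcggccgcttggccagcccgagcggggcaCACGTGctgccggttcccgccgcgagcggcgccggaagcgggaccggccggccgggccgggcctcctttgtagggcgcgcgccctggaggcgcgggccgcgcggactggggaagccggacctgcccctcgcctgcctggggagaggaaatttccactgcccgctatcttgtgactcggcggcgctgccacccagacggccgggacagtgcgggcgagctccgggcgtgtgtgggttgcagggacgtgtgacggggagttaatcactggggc
Slc12a7: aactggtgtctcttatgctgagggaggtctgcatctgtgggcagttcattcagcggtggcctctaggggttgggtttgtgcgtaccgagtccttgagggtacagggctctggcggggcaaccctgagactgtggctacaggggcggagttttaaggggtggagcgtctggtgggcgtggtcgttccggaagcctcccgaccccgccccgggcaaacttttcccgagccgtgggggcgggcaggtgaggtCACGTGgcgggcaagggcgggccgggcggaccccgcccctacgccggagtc

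*Fxyd1* encodes phospholemman, a single-pass membrane protein that regulates the pump, and was the most variable of the 9 genes. It lies at chr7:31051678-31057199 on the minus strand and is the shortest of them, with a spliced length of 620 nt and a coding length of 276 nt. In TRAP it stood at 248, 661 and 333 FPKM at 9 a.m. and 1133, 589.8 and 498 FPKM at 9 p.m. In the supernatant it stood at 578, 471 and 322 FPKM at 9 a.m. and 524, 39.8 and 265 FPKM at 9 p.m. The fractions overlapped at both times, and replicate 2 of the 9 p.m. supernatant was far below the other 11 libraries.

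At 9 p.m. the log2 fold change of *Fxyd1* between TRAP and supernatant was 1.96 (SE 0.76, 95% interval 0.28 to 3.64), with an adjusted p of 0.818 by limma. Without replicate 2 of the 9 p.m. supernatant it was 0.89 (adjusted p = 0.897 by limma). Over both times the log2 fold change was 0.87, and 0.27 without that library. At 9 a.m. it was -0.23 with a 95% interval of -1.05 to 0.60.

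The cotransporters showed no called difference between the fractions. *Slc12a2* encodes NKCC1 and lies on chromosome 18 between 57878678 and 57946821 on the plus strand. It stood at 216, 203 and 165 FPKM in TRAP at 9 a.m., at 164, 172 and 216 FPKM in TRAP at 9 p.m., at 150.2, 261 and 205 FPKM in supernatant at 9 a.m., and at 243, 196 and 219 FPKM in supernatant at 9 p.m. The groups overlapped throughout, and the log2 fold change between fractions was -0.15 with a 95% interval of -0.57 to 0.26. *Slc12a2* took 70.9% ± 5.70 (SD, n = 12) of the summed FPKM of the 3 cotransporters.

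*Slc12a4*, which encodes the widely expressed KCC1, lies at chr8:105943590-105966097 on the minus strand and ranged from 33.9 to 83.0 FPKM. Its group means were 69.8 ± 9.46 (SD, n = 3) and 53.5 ± 17.8 FPKM in TRAP and 71.9 ± 11.7 and 58.7 ± 5.26 FPKM in supernatant, at 9 a.m. and at 9 p.m. The log2 fold change between fractions was -0.11 (95% interval -0.64 to 0.41). An antisense gene annotated on its opposite strand is not in the table, and its reads could not be separated.

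*Slc12a7*, which encodes KCC4, lies at chr13:73733094-73816754 on the plus strand and was the least abundant of the 9 genes. It stood at 38.6, 11.3 and 35.3 FPKM in TRAP at 9 a.m., at 17.4, 16.6 and 22.1 FPKM in TRAP at 9 p.m., at 11.1, 24.2 and 15.9 FPKM in supernatant at 9 a.m., and at 6.19, 9.61 and 18.2 FPKM in supernatant at 9 p.m. TRAP was the higher fraction in 5 of 6 pools, but the groups overlapped at both times. The log2 fold change was 0.69 with a 95% interval of -0.21 to 1.59 and an adjusted p of 0.692 by limma.

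*Wnk1* encodes WNK1, the kinase at the head of the cascade, and lies at chr6:119923969-120038672 on the minus strand. It has the longest transcript of the 9, with 11330 nt spliced and 7905 nt coding. A processed pseudogene annotated on its opposite strand is not in the table, and its reads could not be separated. In TRAP it stood at 42.6, 56.3 and 28.8 FPKM at 9 a.m. and 48.0, 53.8 and 49.9 FPKM at 9 p.m. In the supernatant it stood at 78.0, 159.9 and 112 FPKM at 9 a.m. and 100.5, 114 and 109 FPKM at 9 p.m. Every TRAP library was below every supernatant library at both times. That separation in the same direction at both times was shared by 1.17% of the 11156 genes. At 9 a.m. alone 6.78% of genes were separated in this direction, and at 9 p.m. alone 6.99%.

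The group means of *Wnk1* were 42.6 ± 13.8 (SD, n = 3) and 50.6 ± 2.95 FPKM in TRAP, and 117 ± 41.1 and 108 ± 7.02 FPKM in supernatant, at 9 a.m. and at 9 p.m. Within pools the TRAP level was 0.258 to 0.546 of the supernatant level, and it was lower in 6 of 6 pools. The lowest ratio was that of pool 3 at 9 a.m., where the median log2 difference of all genes was -0.57. The log2 fold change over both times was -1.25 (SE 0.25, 95% interval -1.79 to -0.71), with an unadjusted p of 0.00017 and an adjusted p of 0.0890 by limma. It ranked 20th by p among 11156 genes and missed the threshold. It was -1.42 (adjusted p = 0.886) at 9 a.m. and -1.08 (adjusted p = 0.818) at 9 p.m. by limma.

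Of 11 marker lists, only that of fibroblasts and stroma, cells outside the tagged epithelium, was summed lower in all TRAP than in all supernatant libraries, as *Wnk1* was. The summed level of 10 fibroblast and stroma markers was 5.97 to 33.3 FPKM in the TRAP libraries and 89.3 to 311 FPKM in the supernatant libraries, with 8 of 10 above a mean of 1 FPKM and *Dpt* at 0 in every library. The summed level of 10 macrophage markers was 0 to 7.35 FPKM in TRAP and 6.18 to 89.2 FPKM in supernatant, so that the ranges overlapped slightly, with 5 of 10 above 1 FPKM and *Cd68* and *Pf4* at 0 in every library. At 9 a.m. the other 10 lists overlapped between the fractions, hepatocyte markers among them, at 28.7 to 1430.2 FPKM in TRAP and 3.86 to 124 FPKM in supernatant. At 9 p.m. 5 lists lay lower in TRAP without overlap, those of stroma, macrophages, neurons, oligodendrocytes and red cells. The summed level of the ChP epithelium markers lay higher there, at 57136 to 74601 FPKM in TRAP and 42186 to 51485 FPKM in supernatant. *Ttr* made up most of that sum, with 9 p.m. means of 44467 FPKM in TRAP and 26733 FPKM in supernatant. The list did not move as 1: *Kl* lay lower in TRAP without overlap, at 411 to 467 FPKM beside 575 to 625 FPKM in supernatant. The part of any of these cells in the levels of *Wnk1* and *Atp1b3* was not tested.

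*Stk39* encodes SPAK, the kinase that WNK1 activates, and lies at chr2:68210445-68472268 on the minus strand. In TRAP it stood at 270.0, 291 and 248 FPKM at 9 a.m. and 298, 366 and 388 FPKM at 9 p.m. In the supernatant it stood at 441, 223 and 353 FPKM at 9 a.m. and 360.1, 293 and 499 FPKM at 9 p.m. The fractions overlapped at both times, and the log2 fold change between them was -0.19 (95% interval -0.62 to 0.24). Within a library the ratio of *Stk39* to *Wnk1* was 5.17 to 8.62 in TRAP and 1.40 to 5.66 in supernatant, so that these ranges overlapped.

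**Figure D3:**
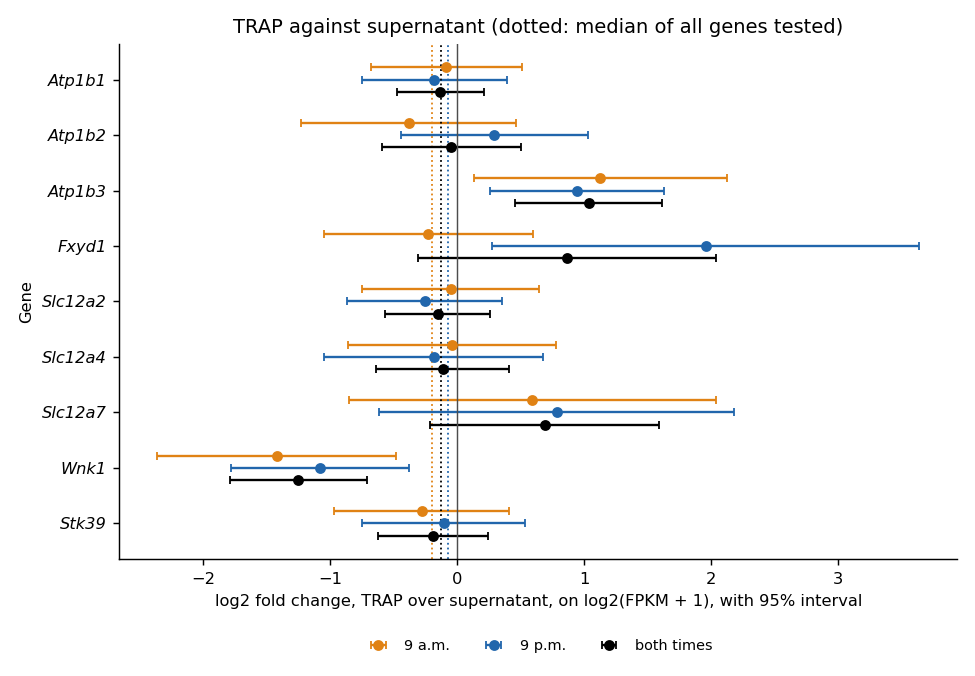
log2 fold change of TRAP over supernatant on log2(FPKM + 1) for the 9 genes at 9 a.m., at 9 p.m. and over both times; points are limma estimates and bars are 95% intervals. Dotted lines mark the medians of all genes tested (-0.20, -0.07 and -0.13), and the intervals of *Wnk1* and *Atp1b3* leave out 0 in all 3 fits.

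In the fits of 1 time each, 0 of the 9 genes were called at 9 a.m. or at 9 p.m., against backgrounds of 0.0463% and 0.0275% of all genes tested. At an unadjusted p under 0.05, *Atp1b3* and *Wnk1* passed at 9 a.m., against 4.5% of all genes. *Atp1b3*, *Wnk1* and *Fxyd1* passed at 9 p.m., against 5.68% of all genes.

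Comparing 9 p.m. with 9 a.m. asked whether the abundance of these transcripts on ribosomes differed between the dark and the light phase. None of the 9 genes was called in TRAP, where a call needed a log2 fold change beyond 0.4 in either direction, and limma called 0% of the 10563 genes tested. No member had an unadjusted p under 0.05, against 3.96% of all genes. The median log2 fold change was 0.29 for the 9 genes and 0.16 for all genes tested, and 6 of the 9 were above 0, beside 56.9% of all genes. Quantile normalization moved the median of all genes to -0.02, and rescaling without the microRNA rows moved it to -0.03.

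*Stk39* was the only one of the 9 genes whose TRAP libraries did not overlap between the times, with the highest 9 a.m. library at 291 FPKM and the lowest 9 p.m. library at 298 FPKM. Of all genes, 8.61% did not overlap between the times, and 5.68% did not overlap with 9 p.m. higher. Its group means were 269.7 ± 21.5 and 351 ± 47.1 FPKM (SD, n = 3), and its log2 fold change was 0.37 with a 95% interval of -0.26 to 1.01 and an adjusted p of 0.941 by limma. After quantile normalization that log2 fold change was 0.09. In the supernatant the times overlapped, and the log2 fold change of *Stk39* was 0.20 (95% interval -0.50 to 0.90).

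*Fxyd1* had the highest time difference in TRAP among the 9, with means of 414 ± 218 (SD, n = 3) FPKM at 9 a.m. and 740.2 ± 343 FPKM at 9 p.m. The libraries overlapped, and the log2 fold change was 0.87 (95% interval -0.06 to 1.80, adjusted p = 0.941 by limma). It was 0.51 without replicate 1 of TRAP at 9 p.m., the library at 1133 FPKM, and 0.56 without replicate 1 of TRAP at 9 a.m. The remaining members ranged from -0.43 for *Slc12a4* to 0.44 for *Atp1b2*. Single libraries moved these values: *Slc12a4* was at -0.14 without replicate 1 of TRAP at 9 p.m., and *Atp1b2* was at 0.17 without replicate 1 of TRAP at 9 a.m. and at 0.22 without replicate 1 of TRAP at 9 p.m. *Slc12a7*, at -0.42, ran from -0.96 to -0.12 with 1 library of TRAP at 9 a.m. left out. The narrowest intervals were those of *Atp1b1*, from -0.58 to 0.68, and *Stk39*, followed by *Slc12a2*, from -0.76 to 0.60. Time differences within those bounds were not resolved with 3 libraries per group.

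In the supernatant 0 of the 9 genes were called between the times, against 0.00903% of the 11075 genes tested, and no member had an unadjusted p under 0.05, against 3.28% of all genes. The 9 genes had a median log2 fold change of -0.05, beside 0.03 for all genes. Of the 9, 4 were above 0, beside 51.8% of all genes. *Fxyd1* was at 457 ± 128 (SD, n = 3) FPKM at 9 a.m. and 276 ± 242 FPKM at 9 p.m., with a log2 fold change of -1.32 (95% interval -2.86 to 0.23). Without replicate 2 of the 9 p.m. supernatant it was -0.25. *Atp1b3* was at 0.47, and the times overlapped for all 9 genes, beside 8.7% of all genes tested that did not overlap.

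**Figure D4:**
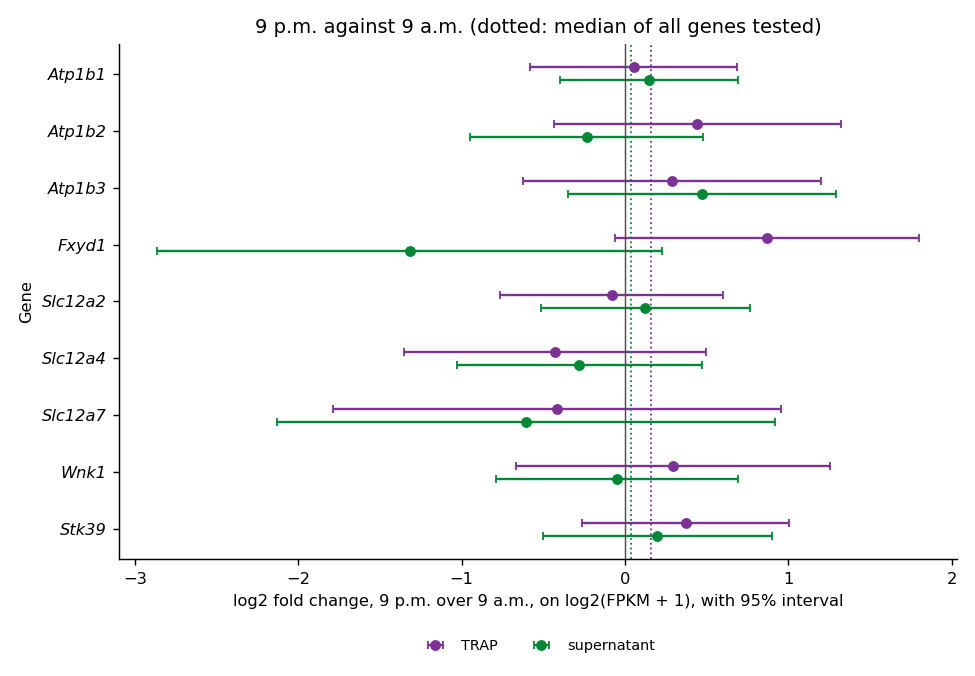
log2 fold change of 9 p.m. over 9 a.m. on log2(FPKM + 1) for the 9 genes in TRAP and in supernatant; points are limma estimates and bars are 95% intervals. All intervals cover 0, and dotted lines mark the medians of all genes tested, 0.16 in TRAP and 0.03 in supernatant.

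Whether the time difference itself differed between the fractions was tested as an interaction term in a fit of the 12 libraries. Of the 9 genes 0 were called, against 0.00896% of all genes tested, and only *Fxyd1* had an unadjusted p under 0.05, against 3.85% of all genes. Its interaction was 2.19 on the log2 scale (95% interval 0.08 to 4.29, adjusted p = 0.988 by limma), and 1.12 without replicate 2 of the 9 p.m. supernatant. The other 8 genes lay between -0.21 for *Slc12a2* and 0.68 for *Atp1b2*.

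The partners of these genes were described from lists of the other pump subunits and FXYD proteins, the other SLC12 transporters and the other components of the WNK pathway. Of the 11 other pump and FXYD genes, 6 had a mean above 1 FPKM. *Fxyd5*, another FXYD family gene, had a mean of 7.28 FPKM, and *Fxyd3*, *Fxyd4*, *Fxyd6* and *Fxyd7* were listed at 0 in every library.

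Of the 6 other SLC12 genes, 2 had a mean above 1 FPKM. The kidney cotransporters NKCC2 (*Slc12a1*) and NCC (*Slc12a3*) and the neuronal KCC2 (*Slc12a5*) had means under 1 FPKM. Of the 16 other WNK pathway genes, 14 were above 1 FPKM. *Cab39l*, which encodes MO25β, a scaffold that activates SPAK, was highest at 308 ± 48.2 (SD, n = 12) FPKM, beside 41.3 FPKM for its paralogue *Cab39*. *Sgk1*, a kinase of the same ion transport network, had a mean of 136 FPKM, and *Cul3*, the cullin of the ligase that degrades WNK kinases, 105 FPKM. *Wnk4* had a mean of 12.7 FPKM and *Oxsr1*, the paralogue of *Stk39*, 11.5 FPKM. The mean of *Stk39* was thus above that of *Oxsr1*, and the lowest *Stk39* library, at 223 FPKM, lay above the highest *Oxsr1* library, at 23.7 FPKM.

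None of these other genes was called in any of the 6 comparisons, and the lowest adjusted p by limma, 0.535, was that of *Rbx1*, the RING subunit of the same ligase, between TRAP and supernatant over both times. At an unadjusted p under 0.05, 3 of the 22 partners tested over both times passed, beside 7.72% of all genes. They were *Fxyd5*, listed at 0 in 5 of 12 libraries, with a log2 fold change of -2.33, *Rbx1* with -2.13 and the phosphatase gene *Ppp1cb* with -0.61. At 9 a.m. 1 of 19 partners passed, beside 4.5% of all genes, which was *Klhl3*, the adaptor of the ligase, at -3.03. At 9 p.m. 1 of 22 passed, beside 5.68%, which was *Rbx1* at -2.90. Between the times 1 of 21 partners passed in TRAP, *Ppp1ca* at 1.03, beside 3.96% of all genes, and 1 of 21 in supernatant, *Sgk1* at 0.93, beside 3.28%. None of 22 passed in the interaction, beside 3.85%.

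The genes whose pattern over the 12 libraries was most like that of each member were found by the root mean square difference of centred log2(FPKM + 1) values, over 11155 other genes. *Map1b*, which encodes a microtubule-associated protein, was nearest to *Wnk1* at 0.24, beside a median of 1.26 over all genes. *Slc22a17* was nearest to *Atp1b1* at 0.13 and *Itpr1*, an intracellular calcium channel gene, to *Slc12a2* at 0.13. On the same scale the SD of the member itself was 0.17 for *Atp1b1* and 0.23 for *Slc12a2*, beside 0.70 for *Wnk1*. For a member that varies little, a short distance need not mean a shared pattern. *Abr* was nearest to *Stk39* at 0.21, and *Mthfd1* to *Atp1b3* at 0.38. *Fbf1* was nearest to *Atp1b2* at 0.19, *Gas7* to *Slc12a4* at 0.20 and *Scaf1* to *Slc12a7* at 0.39. *Fxyd1* had no gene closer than *N4bp3* at 0.50, followed by *Mapk3* at 0.53 and *Srr* at 0.54. All these genes share the same libraries, and each nearest gene lies under the median of all genes by selection. The distances are a description with no test.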

How the data were processed

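RNA from 12 libraries, in 4 groups of 3, was analysed. The authors prepared ribosomal RNA-depleted libraries, aligned reads to mm10 with STAR 2.4.0 and deposited FPKM from the Cufflinks suite. The study names an mm10 gene annotation without a release, and the suite version and strandedness of counting were not stated. FPKM hold no depth, so no counting interval could be given. From the table, 27 rows with symbols turned into dates were left out. Tests were run with limma 3.58.1 (R 4.3.3, empirical Bayes with an intensity trend) on log2(FPKM + 1), on genes with a mean above 1 FPKM, with Benjamini-Hochberg adjustment over all of them. Calls needed an adjusted p under 0.05 and a log2 fold change above 0.4 (time) or 0.3 (fraction). A fold change on this scale understates changes of low genes. The scripts were tested on simulated data. Groups came from the labels, and p-values measure the spread between pools. Shared titles pair TRAP and supernatant of a pool, but their deviations correlated at -0.08 to -0.01; between the times a number is shared by different animals. Members and gene lists were chosen with earlier results of these data known. Named genes were the 9 members, partners with a mean above 1 FPKM, and for each member the gene with the nearest pattern (3 for the member of highest mean); partners at or near 0 and the within-library ratios were chosen after their values were seen. The values of some partner genes are not reported here. Alternatives covered the pseudocount, filter, scaling, trend, block and each library left out.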

Additional observations from a re-analysis of the deposited data

How the results depend on the processing

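The number of the 9 genes called stayed at 0 in all 6 comparisons under every alternative run, with the replicate block included, which changed no call. Few genes of any kind were called under the alternatives. The highest count was 14, reached for example between TRAP and supernatant over both times with a pseudocount of 5, among 11156 genes tested. A count of 0 therefore does not set the 9 genes apart. Under the block the adjusted p of *Wnk1* between TRAP and supernatant over both times was 0.365 and that of *Atp1b3* was 0.606 by limma. Over all alternatives the adjusted p of *Wnk1* in that comparison ran from 0.0672 to 0.437, with log2 fold changes of -1.35 to -1.12. Of 1008 alternative log2 fold changes, 965 kept their direction and 43 changed sign; the cause was not tested. The 135 alternative mean levels and 72 alternative shares moved by less than 1 SD of the single libraries. For a mean with 1 library left out that outcome was fixed in advance, which holds for all the shares and most of the levels. Only the levels under another scaling could have moved further.

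With microRNA rows left out, log2 fold changes that changed sign were those of *Atp1b1* between times in TRAP (-0.18), *Slc12a2* (0.0045) and *Slc12a4* (0.018) between fractions at 9 a.m., and the interactions of *Slc12a7* (-0.068) and *Stk39* (-0.10). With quantile normalization they were *Atp1b1* between times in TRAP (-0.21), *Slc12a4* at 9 a.m. (0.0076) and the interaction of *Stk39* (-0.16). With upper quartile scaling they were *Atp1b1* between times in TRAP (-0.075), *Atp1b1* (0.058), *Slc12a2* (0.092) and *Slc12a4* (0.10) at 9 a.m., and *Atp1b2* over both times (0.037).

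With each library left out in turn, the log2 fold change between times in TRAP ran from -0.029 to 0.19 for *Atp1b1* and from -0.038 to 0.70 for *Atp1b3*. Between times in supernatant it ran from -0.083 to 0.31 for *Slc12a2*, from -0.31 to 0.21 for *Wnk1* and from -0.075 to 0.42 for *Stk39*. Between fractions at 9 a.m. it ran from -0.63 to 0.078 for *Fxyd1*, from -0.16 to 0.076 for *Slc12a4* and from -0.26 to 0.14 for *Slc12a2*. At 9 p.m. it ran from -0.39 to 0.11 for *Slc12a4* and from -0.28 to 0.10 for *Stk39*, and over both times from -0.18 to 0.12 for *Atp1b2* and from -0.20 to 0.026 for *Slc12a4*. The interaction ran from -0.19 to 0.049 for *Atp1b1*, from -0.51 to 0.23 for *Atp1b3*, from -0.35 to 0.57 for *Slc12a7*, from -0.35 to 0.14 for *Slc12a4*, from -0.40 to 0.0016 for *Slc12a2* and from -0.044 to 0.45 for *Stk39*. With 3 libraries per group and no read depth, the intervals in the text set what could be resolved.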
